A study of Mus musculus with 15 samples.

Results

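The messages of the cold-inducible RNA-binding proteins Rbm3 and Cirbp were followed in the suprachiasmatic nucleus (SCN), the hypothalamic circadian pacemaker, of mice lacking the nuclear receptors REV-ERB alpha and beta. Both genes were taken by symbol, 2 of the 24419 genes in the count table. The 15 RNA-seq libraries formed 4 groups: DKO (both REV-ERBs knocked out) at circadian time (CT) 16 with 4 libraries, control at CT16 with 5, DKO at CT4 with 3, and control at CT4 with 3. All groups were C57BL/6 mice of 8-12 weeks, and each library pooled 2-4 tissue punches. The control libraries carry WT in their titles and the word control as genotype. Neither the alleles nor a Cre driver is given in the sources used here. The pooled mice are not named either, so a p-value measures the spread between pools.

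RBM3 and CIRBP are small proteins with an RNA recognition motif followed by a glycine-rich stretch. Their messages and proteins accumulate when cells are cooled by a few degrees, and in rodents and cultured cells they follow daily rhythms of body temperature. CIRBP is known to bind clock gene messages, Clock among them, and both proteins influence which polyadenylation site a message uses. RBM3 is also known for protecting neurons and synapses in the cooled mouse brain. Heat shock genes, driven by the transcription factor HSF1, respond instead to warming. REV-ERBs are repressors within the clock's transcriptional loop.

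The 2 messages are close relatives, and their opening coding sequences are shown because they encode most of the RNA recognition motif and because reads from alike copies can be confused. Both are 5′ to 3′ in the sense of the mRNA, from GENCODE M21 transcripts of GRCm38, coding bases 1 to 180, with capitals at positions where the aligned genes carry the same base.

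Rbm3: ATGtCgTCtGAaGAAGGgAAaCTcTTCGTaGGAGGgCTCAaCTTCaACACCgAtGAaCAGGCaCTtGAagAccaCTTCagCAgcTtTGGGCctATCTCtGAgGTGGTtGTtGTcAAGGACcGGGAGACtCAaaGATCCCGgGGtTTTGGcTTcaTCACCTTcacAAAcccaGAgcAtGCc

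Cirbp: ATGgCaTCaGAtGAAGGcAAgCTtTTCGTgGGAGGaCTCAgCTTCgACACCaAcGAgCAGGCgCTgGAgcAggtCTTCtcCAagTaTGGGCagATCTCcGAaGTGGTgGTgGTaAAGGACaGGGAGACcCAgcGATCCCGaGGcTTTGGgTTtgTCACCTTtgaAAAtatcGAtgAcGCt

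Of these 180 bases 127 were identical (70.56%), against 330 of 528 alignment columns (62.5%) over the whole coding sequences, which hold 154 codons in Rbm3 and 172 in Cirbp. Across all 11 Rbm3 and 7 Cirbp transcripts of the annotation, the longest stretch of identical bases was 11. Rbm3 lies on the minus strand at chrX:8138975-8145880 and Cirbp on the plus strand at chr10:80167841-80171653, in the coordinates of the count table (mm10).

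RefSeq lists 2 promoters for Cirbp. The upstream one is shown because it carries an octamer described as a mild-cold responsive element, and that of Hspa1b, the HSF1-driven gene of largest change below, because it carries a heat shock element. Each line gives the 250 bases before the gene's start in RefSeq (GRCm38.p6), read in the sense of the gene, with the element in capitals. The Cirbp window is chr10:80167589-80167838 on the plus strand, and the Hspa1b window chr17:34959239-34959488 on the minus strand.

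Cirbp: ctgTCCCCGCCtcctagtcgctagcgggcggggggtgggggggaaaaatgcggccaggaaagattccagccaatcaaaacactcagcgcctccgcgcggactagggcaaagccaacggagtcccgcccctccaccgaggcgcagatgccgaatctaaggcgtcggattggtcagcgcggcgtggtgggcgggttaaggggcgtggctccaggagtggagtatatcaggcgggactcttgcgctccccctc

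Hspa1b: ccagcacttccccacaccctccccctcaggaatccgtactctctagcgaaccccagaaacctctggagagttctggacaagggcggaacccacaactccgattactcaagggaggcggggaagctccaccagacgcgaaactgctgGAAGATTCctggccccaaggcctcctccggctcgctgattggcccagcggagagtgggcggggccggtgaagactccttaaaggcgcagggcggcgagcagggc

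The Cirbp element TCCCCGCC stood at -247 to -240 from the start, and on either strand that octamer was found in 4.64% of the 32851 RefSeq promoter windows of that length. The same octamer stood on the opposite strand of the Hspa1b window at -137 to -130. The heat shock element, searched as GAANNTTC, stood at -104 to -97 in Hspa1b and occurred in 6.69% of windows. The windows of the heat shock genes Hsph1, Dnajb1 and Stip1 held no GAANNTTC. Other arrangements of the element, such as its units in the reverse order, were not searched. The absence of a heat shock element from these windows was therefore not shown. The Cirbp window held no GAANNTTC, no AGGTCA (the core of the sites that RORs and REV-ERBs bind, in 14% of windows) and no E-box CACGTG (6.02%). It held CCAAT, a box found in 33.8% of windows, once on each strand. The Hspa1a and Hspa1b windows were identical at 247 of 250 bases. The second Cirbp window, chr10:80167921-80168170, held GC boxes (GGGCGG, in 32.7% of windows), as did the first Cirbp window and that of Hspa1b. The second window held no match to the other motifs searched, TCCCCGCC and CCAAT included. These matches describe letters in a window and say nothing of binding.

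Total counts ran from 32580803 to 68757624 per library, giving Rbm3 1264 to 4392 reads and Cirbp 3105 to 7647. Levels are given as CPM, counts divided by library size scaled with TMM factors. SCN markers were present in every library (Avp at 72.3 to 681 CPM, Vip at 19.1 to 145, Six6 at 23.8 to 79.8). Nr1d1 and Nr1d2, which encode the REV-ERBs, were not lower in DKO libraries (Nr1d1 at 241 to 378 CPM in DKO and 135 to 150 CPM in control at CT16), and since the deleted segment is not given, these gene totals do not check the genotype. Ddx3y of the Y chromosome was at 87.3 to 99.0 CPM in all libraries and Xist at no more than 0.636 CPM, so the X-linked Rbm3 was compared between tissue of 1 sex. In tissue markers replicates 3 and 4 of DKO at CT16 and replicate 1 of control at CT4, 3 libraries, were judged to stand apart. No numeric rule set this choice, and results that rest on these libraries are also given without them. Other libraries differed in single marker lists too. Summed myelin markers were at 9761 CPM in control CT16 replicate 2 and 2967 CPM in control CT16 replicate 5. In such bulk tissue, fewer cells of a type and less RNA per cell cannot be told apart.

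Rbm3 was low in 1 group only, control SCN at CT4. In DKO SCN at CT4 it was 1.51-fold higher, at about the level that both genotypes had at CT16. Per library, Rbm3 was at 58.1, 50.0 and 53.7 CPM in DKO at CT4, against 34.2, 36.4 and 36.7 CPM in control at CT4. All 3 DKO libraries lay above all 3 control libraries, as did those of 12.1% of the 16910 genes tested. The means were 53.9 ± 4.04 CPM in DKO and 35.8 ± 1.37 CPM in control (SD, n = 3 each). The log2 fold change was 0.59 ± 0.09 (SE, 95% interval 0.40 to 0.79), with a Benjamini-Hochberg adjusted p of 0.00666 in edgeR's quasi-likelihood test. Of all genes tested, 1.28% passed that test at 0.05, and Rbm3 ranked 20 by p.

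**Figure D1:**
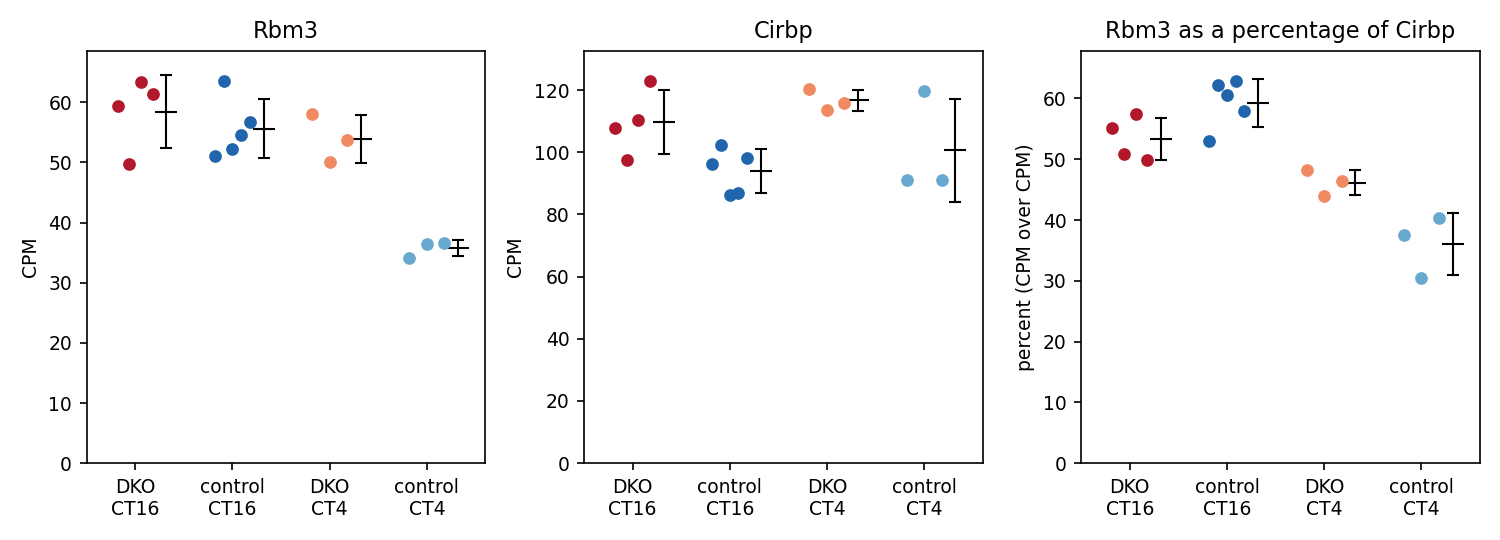
Levels of Rbm3 and Cirbp (CPM) and Rbm3 as a percentage of Cirbp in each library (points), with the group mean and SD (bars), for DKO and control at CT16 and at CT4 (n = 4, 5, 3 and 3). The control CT4 libraries lie at 34.2 to 36.7 CPM of Rbm3, below every other library, while for Cirbp the groups overlap in each of the 4 comparisons.

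Levels of tissue markers shifted with this comparison, and tissue share and regulation of the marker genes cannot be told apart here. Of 23 markers of neighbouring hypothalamic nuclei, all tested, 19 were higher in DKO at CT4 (median log2 fold change 0.89, none past the test). Their summed level was 1035 to 1121 CPM in DKO and 552 to 981 CPM in control at CT4. Of these markers only Kiss1 was at 0, in at least 1 control CT4 library. Of 16 SCN markers 15 were lower (median -0.93, none past the test), with sums of 1037 to 1078 CPM in DKO and 1309 to 1443 CPM in control. With the neighbouring nuclei score as a covariate the Rbm3 change was 0.53 ± 0.11 with an adjusted p of 0.0722, which misses the threshold of 0.05. Without the 3 libraries that stood apart it was 0.56 ± 0.10 (adjusted p 0.00597).

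At CT16 Rbm3 was at like levels in both genotypes. It was at 59.4, 49.7, 63.4 and 61.3 CPM in the DKO libraries and at 51.0, 63.5, 52.3, 54.5 and 56.7 CPM in the control libraries. The 2 ranges overlapped almost fully, and the highest library of all was control CT16 replicate 2. The log2 fold change was 0.07 ± 0.07 (95% interval -0.09 to 0.23, adjusted p 0.627), so the interval leaves room for a rise of up to 1.17-fold. In this comparison 4.66% of genes passed the test.

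In control SCN Rbm3 was higher at CT16 than at CT4 (this comparison is called over time below). Rbm3 averaged 55.6 ± 4.92 CPM at CT16 (SD, n = 5) and 35.8 ± 1.37 CPM at CT4 (n = 3) in control, a 1.56-fold higher level at CT16. Every CT16 library lay above every CT4 library, which held for 7.99% of genes. The log2 fold change was 0.64 ± 0.08 (0.46 to 0.82) with an adjusted p of 0.000566 in edgeR's quasi-likelihood test, which 4.21% of genes passed, and Rbm3 ranked 28. It was 0.61 ± 0.09 (adjusted p 0.00192) without the libraries that stood apart and 0.60 ± 0.09 (adjusted p 0.00134) with the neighbouring nuclei score as a covariate. This comparison and the genotype comparison at CT4 share the 3 control CT4 libraries, so the 2 calls are not independent.

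In DKO SCN the time difference of Rbm3 was small. Its mean was 58.5 ± 6.08 CPM at CT16 (SD, n = 4) and 53.9 ± 4.04 CPM at CT4 (n = 3), and the libraries overlapped. The log2 fold change was 0.12 ± 0.09 (-0.07 to 0.30, adjusted p 0.496), in a comparison that 1.8% of genes passed. The difference between the 2 time effects, DKO minus control, was -0.52 ± 0.12 on the log2 scale (-0.77 to -0.27). Its unadjusted p was 0.000447, rank 73 of all genes, and its adjusted p of 0.103 missed the threshold, which only 0.0118% of genes passed. The adjusted p was 0.00948 with DESeq2, 0.0210 with limma voom and 0.0328 without the libraries that stood apart. It was 0.229 with the replicate number as a block, and with the neighbouring nuclei score as a covariate the difference was -0.42 (adjusted p 0.999).

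Cirbp was not called in any comparison, and its groups overlapped in each of them. At CT4 it was at 120.5, 113.7 and 115.9 CPM in DKO and at 91.0, 119.8 and 91.1 CPM in control. Control replicates 1 and 3 lay well below the DKO libraries and control replicate 2 lay within their range. The log2 fold change was 0.21 ± 0.10 (0.00 to 0.43, adjusted p 0.346). Without control replicate 2 it was 0.36, and with the neighbouring nuclei score as a covariate 0.31 (adjusted p 0.455), and it was not called in either fit.

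At CT16 Cirbp was at 107.9, 97.6, 110.4 and 122.8 CPM in DKO and at 96.3, 102.2, 86.4, 86.8 and 98.0 CPM in control. The DKO libraries tended to the upper side, with an overlap at DKO replicate 2. The log2 fold change was 0.22 ± 0.08 (0.05 to 0.40), with an unadjusted p of 0.0167 and an adjusted p of 0.146. The highest Cirbp value, 122.8 CPM, was that of DKO replicate 4, the library with the highest summed myelin markers (20073 CPM). All 12 oligodendrocyte and myelin markers were higher in DKO at CT16 (median log2 fold change 0.72, none past the test), with sums of 3923 to 20073 CPM in DKO and 2967 to 9761 CPM in control and no marker at 0. With a myelin score as covariate the Cirbp change was 0.19 ± 0.09, and without the libraries that stood apart it was 0.13 ± 0.09 (adjusted p 0.591).

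Time moved Cirbp little in either genotype. Its mean was 109.7 ± 10.4 CPM at CT16 and 116.7 ± 3.47 CPM at CT4 in DKO (SD, n = 4 and 3), a log2 fold change of -0.09 ± 0.10. In control it was 93.9 ± 7.06 CPM at CT16 and 100.6 ± 16.6 CPM at CT4 (SD, n = 5 and 3), a log2 fold change of -0.10 ± 0.09. The intervals, -0.29 to 0.11 and -0.29 to 0.09, both exclude a rise of the size seen for Rbm3 in control. The time effects differed by 0.01 ± 0.13 between genotypes (-0.27 to 0.29, adjusted p 0.981).

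**Figure D2:**
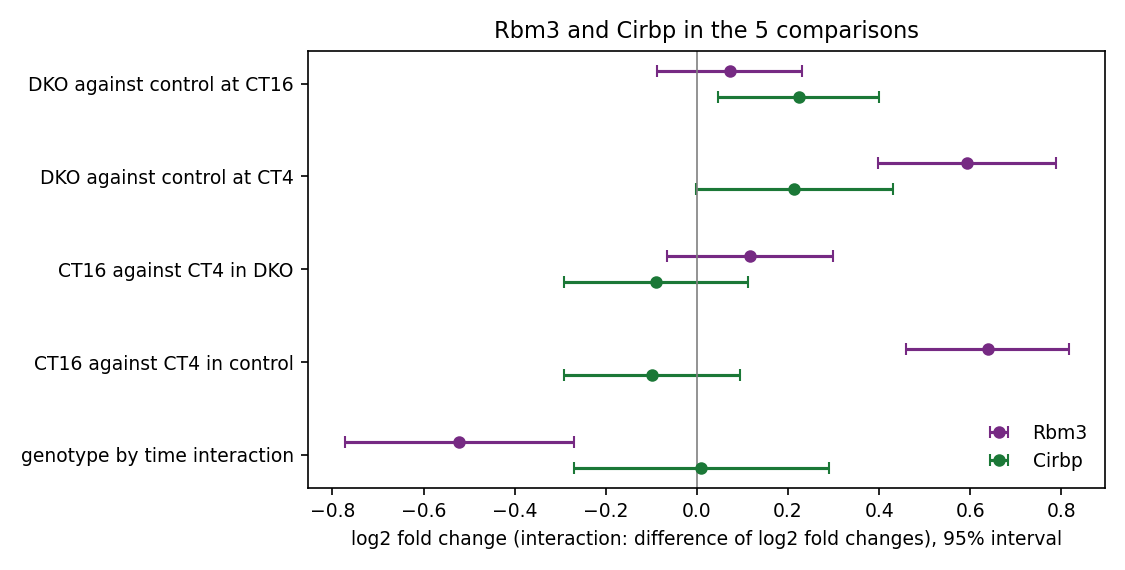
Log2 fold changes of Rbm3 and Cirbp with 95% intervals in 4 comparisons, and the genotype by time interaction as a difference of log2 fold changes. For Rbm3 the intervals of DKO against control at CT4 (0.40 to 0.79) and of CT16 against CT4 in control (0.46 to 0.82) lie away from 0, while of the 5 Cirbp intervals only that of DKO against control at CT16 (0.05 to 0.40) does not include 0.

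Ordered by mean level, Rbm3 was highest in DKO at CT16, then control at CT16, then DKO at CT4, and these neighbours overlapped. Control at CT4 came last, below all other libraries. For Cirbp the order was DKO at CT4, DKO at CT16, control at CT4 and control at CT16, and each neighbouring pair overlapped.

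Whether the pair moved by different amounts was tested with the log2 ratio of Rbm3 to Cirbp within each library, which does not depend on scaling. Rbm3 was at 49.9 to 57.4% of the Cirbp CPM in DKO at CT16, 53.0 to 62.8% in control at CT16, 44.0 to 48.2% in DKO at CT4 and 30.4 to 40.3% in control at CT4. Control at CT4 again lay below all other libraries. In control the log2 ratio was 0.72 higher at CT16 than at CT4 (-0.76 ± 0.10 against -1.48 ± 0.21, SD, n = 5 and 3), with an exact two-sided permutation p of 0.0179, the smallest that 56 splits allow, and 0.0714 after adjustment over the 4 comparisons. At CT4 the ratio was 0.36 higher in DKO than in control (-1.12 ± 0.07 against -1.48 ± 0.21, n = 3 each), with an exact permutation p of 0.1, the smallest that 20 splits allow. In DKO it was 0.21 higher at CT16 than at CT4 (exact permutation p 0.0571). At CT16 it was 0.15 lower in DKO than in control (exact permutation p 0.0635). Both had an adjusted p of 0.0847.

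Within groups the 2 messages deviated together to some degree. Over the 15 libraries, deviations of log2 CPM from the group means correlated with Pearson's r of 0.565 (permutation p 0.0283). Spearman's rho was 0.568 (permutation p 0.0300), and no other such relation was computed. The permutations shuffled all 15 deviations freely and made no allowance for the group means removed beforehand. Both p-values are therefore too small, and they do not decide whether the 2 messages deviate together beyond chance. Without the 2 libraries farthest in Rbm3, replicate 2 of DKO at CT16 and replicate 2 of control at CT16, r was 0.389. The relation thus rests in part on those 2 libraries. Over all 15 libraries with group differences left in, r was 0.280.

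Per length, Cirbp was the more abundant message. Cirbp had a mean of 82.8 RPKM (CPM per kilobase of exon, range 68.8 to 97.8) over 1256 exonic bases, a level above 95.8% of tested genes. Rbm3 had 14.5 RPKM (9.54 to 17.7) over 3582 bases, above 68.2% of tested genes. Its annotated exons include a downstream segment of 2234 bases; with the remaining 1348 bases alone as the length, Rbm3 came to 38.6 RPKM (25.4 to 47.1), so the ratio between the genes depends on which exons the transcripts here hold.

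Rbm3os, an antisense gene on the opposite strand, shares 94 exonic bases with Rbm3. It had only 8 to 34 reads per library, at 0.635, 0.576 and 0.715 CPM in DKO and 0.332, 0.370 and 0.464 CPM in control at CT4. Its groups did not overlap there, yet its log2 fold change of 0.73 ± 0.38 had an adjusted p of 0.401. The strand setting of the counting is not given, so reads of the pair in the shared bases cannot be told apart. Rbm3 had 1264 to 4392 reads in the same libraries.

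The 6 tested genes nearest to Rbm3 on the X chromosome (Wdr13, Gm6787, Was, Rbm3os, Tbc1d25 and Ebp) did not pass the test in either genotype comparison, and of them only Wdr13 fell over time in control (-0.14 ± 0.04, adjusted p 0.0428). Around Cirbp, Dos fell in DKO at CT16 (-0.23 ± 0.05, adjusted p 0.0147) and Mum1 fell in DKO at CT4 (-0.29 ± 0.07, adjusted p 0.0484). Midn, Atp5d, 1600002K03Rik and Efna2 passed in neither.

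The genes whose log2 CPM was most like that of Rbm3 over the 15 libraries, among 11113 genes, were Rnf6 (r 0.890), Etnppl (0.871), Psmc2 (0.860), Nudcd3 (0.858) and Snrnp27 (0.851). Rnf6 encodes a ubiquitin ligase, Etnppl an astrocyte enzyme of phosphoethanolamine breakdown, Psmc2 a proteasome subunit and Snrnp27 a spliceosome protein. Etnppl rose in DKO at CT4 (0.60 ± 0.08, adjusted p 0.00259) and at CT16 (0.39 ± 0.06, adjusted p 0.00151), and over time in control (0.48 ± 0.07, adjusted p 0.00156). Rnf6 rose over time in control (0.18 ± 0.05, adjusted p 0.0439). Snrnp27 rose in DKO at CT4 (0.30 ± 0.07, adjusted p 0.0387) and over time in control (0.31 ± 0.06, adjusted p 0.00842). The lowest correlations were those of Kirrel and Zmym3 (both -0.906), and Cirbp ranked 2493.

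For Cirbp the most alike were Hnrnpdl (r 0.907), an RNA-binding protein of the hnRNP D family, Arid4b (0.905), Jarid2 (0.901), Trub1 (0.887) and Tmem86a (0.864). Of these Hnrnpdl (0.24 ± 0.05, adjusted p 0.0158), Trub1 (0.25 ± 0.06, adjusted p 0.0327) and Tmem86a (0.35 ± 0.09, adjusted p 0.0414) rose in DKO at CT16. The lowest were Gga3 (-0.911) and Ndufaf5 (-0.868). Genes of a library share its depth and tissue makeup, and group differences were left in. Genes picked as alike thus tend to show the member's own contrasts, so these correlations and changes are descriptions.

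Heat shock genes passed the test between genotypes at CT16, where Rbm3 did not, and edgeR called none of them at CT4, where Rbm3 rose. Of 24 HSF1-driven genes, 11 fell and none rose in DKO at CT16, against 1.83% of all genes that fell, and the list's median log2 fold change was -0.21 against 0.00 for all genes. With DESeq2, 15 passed. At CT4 edgeR called 0 of the 24 (median -0.06), with 2 at an unadjusted p under 0.05, 1 called by DESeq2 and 2 by limma voom. Of the 24, 20 were lower and 4 higher in DKO at CT4, so the absence of a shift there was not shown. Without the 3 libraries that stood apart 6 fell at CT16, and with the neighbouring nuclei score as a covariate 3. Without DKO CT16 replicate 2 alone 4 fell. Fewer of all genes were called in each of these fits as well, 380 without that replicate against 788 in the main fit. The lower counts are thus not particular to heat shock genes. Of the 23 neighbouring nuclei markers 18 were lower in DKO at CT16 (median -0.40, none past the test), with sums of 530 to 983 CPM in DKO and 883 to 1234 CPM in control.

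Hspa1b, an inducible HSP70 chaperone, was at 7.51, 5.99, 7.59 and 3.56 CPM in DKO and at 12.3, 13.9, 10.3, 10.9 and 10.7 CPM in control at CT16. All DKO libraries lay below all control libraries, as in 2.94% of genes. Its log2 fold change was -0.91 ± 0.18 (adjusted p 0.00874, edgeR), and -0.72 without DKO CT16 replicate 4, its lowest library. Its near-identical copy Hspa1a fell too (-0.78 ± 0.16, adjusted p 0.00864), and reads of the 2 copies may have been split between them. The same library was the lowest of the DKO CT16 group for all 6 heat shock genes shown. Their levels in DKO CT16 replicate 4 stand beside its high myelin markers, and the part of tissue makeup was not tested beyond the fits given. Hspa1a and Hspa1b each passed the test at CT16 in 25 of 26 other settings, which include a myelin covariate.

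**Figure D3:**
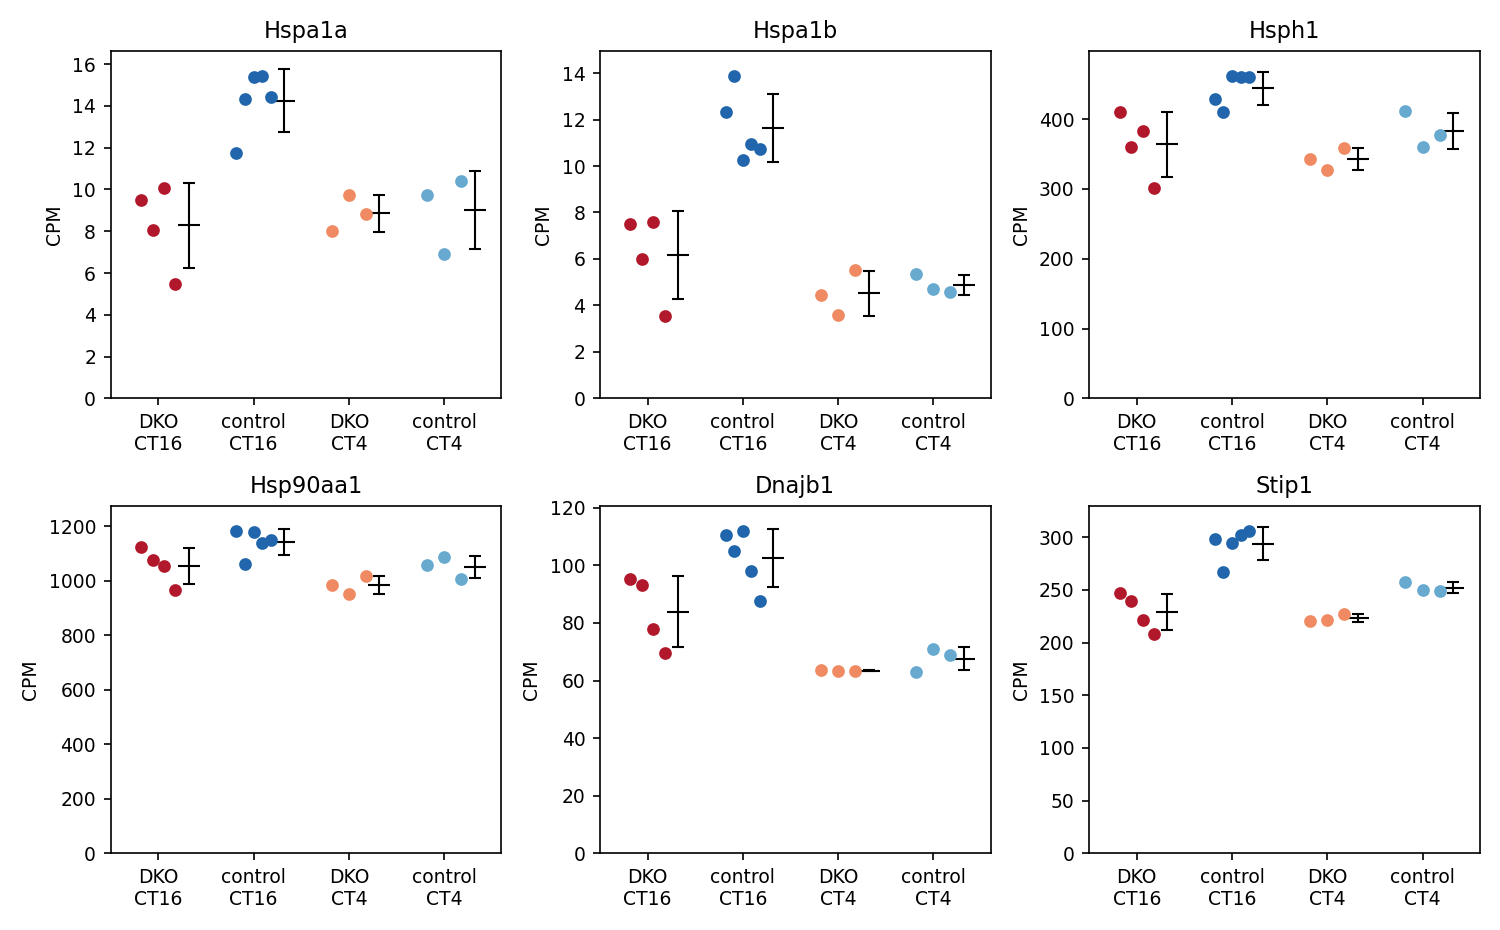
CPM per library (points) with the group mean and SD (bars) of 6 HSF1-driven genes, for DKO and control at CT16 and at CT4 (n = 4, 5, 3 and 3). Hspa1b lies at 3.56 to 7.59 CPM in DKO and 10.3 to 13.9 CPM in control at CT16, while at CT4 the genotypes overlap for it.

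Among the cochaperones Stip1, which links HSP70 to HSP90, was at 247, 239, 221 and 208 CPM in DKO and at 299, 267, 295, 303 and 306 CPM in control at CT16. It fell in DKO without overlap (-0.36 ± 0.05, adjusted p 0.000517) and passed in all 26 other settings, a myelin covariate included. Hsph1, a nucleotide exchange factor of HSP70, also fell (-0.29 ± 0.07, adjusted p 0.0315), though it missed the threshold in 9 of 26 other settings. The HSP40 gene Dnajb1 (-0.29 ± 0.09, adjusted p 0.0755) and the inducible HSP90 gene Hsp90aa1 (-0.11 ± 0.05, adjusted p 0.211) did not pass the test. Dnajb1 passed in 5 of 26 other settings and Hsp90aa1 in none.

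Over time in control, 11 of the 24 HSF1-driven genes rose at CT16 and none fell (median 0.23), against 2.13% of genes that rose. Hspa1b averaged 11.6 ± 1.47 CPM at CT16 (SD, n = 5) and 4.87 ± 0.431 CPM at CT4 (n = 3), a log2 fold change of 1.25 ± 0.21 (adjusted p 0.00344). Dnajb1 rose by 0.60 ± 0.10 (adjusted p 0.00315), Hspa1a by 0.66 ± 0.17 (adjusted p 0.0427) and Stip1 by 0.22 ± 0.06 (adjusted p 0.0374). Hspa1a and Stip1 each missed the threshold in 13 of 26 other settings, and without control CT4 replicate 2 only 4 of the 24 rose. Of all genes 235 were called without that library, against 712 in the main fit. Rbm3 thus was higher at CT16 together with heat shock genes in control, with 0.64 ± 0.08. Microglia markers moved with this comparison as well, 3 of 12 having fallen, as did 3 of 16 SCN markers (Six6, Rgs16 and Rasl11b), where 2.08% of all genes fell, while of the neighbouring nuclei markers 3 rose (Crh, Hmx2 and Hmx3) and Foxb1 fell. With the neighbouring nuclei score as a covariate 7 of the 24 passed. Microglia and SCN markers were not used as covariates, and their part in the result was not tested.

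In DKO over time 1 of the 24 rose, the HSP90 cochaperone Chordc1 (0.47 ± 0.08, adjusted p 0.00376), where 1.29% of all genes rose. Hspa1b had a log2 fold change of 0.46 ± 0.22 (adjusted p 0.267) and Hspa1a of -0.09 ± 0.18 (adjusted p 0.824). Dnajb1 had a log2 fold change of 0.41, which missed the threshold in the main fit but passed in 9 of 26 other settings. Of the 24, 21 were higher and 3 lower at CT16 than at CT4 in DKO (median 0.09), so the absence of a rise there was not shown. In the interaction edgeR called 0 of the 24 (median -0.15), with 6 at an unadjusted p under 0.05 and 2 called each by DESeq2 and limma voom. For Hspa1b the time effects, DKO minus control, differed by -0.80 ± 0.29 on the log2 scale (adjusted p 0.229). No difference in time effect between genotypes was therefore shown for these genes by the main test, nor for Rbm3.

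**Figure D4:**
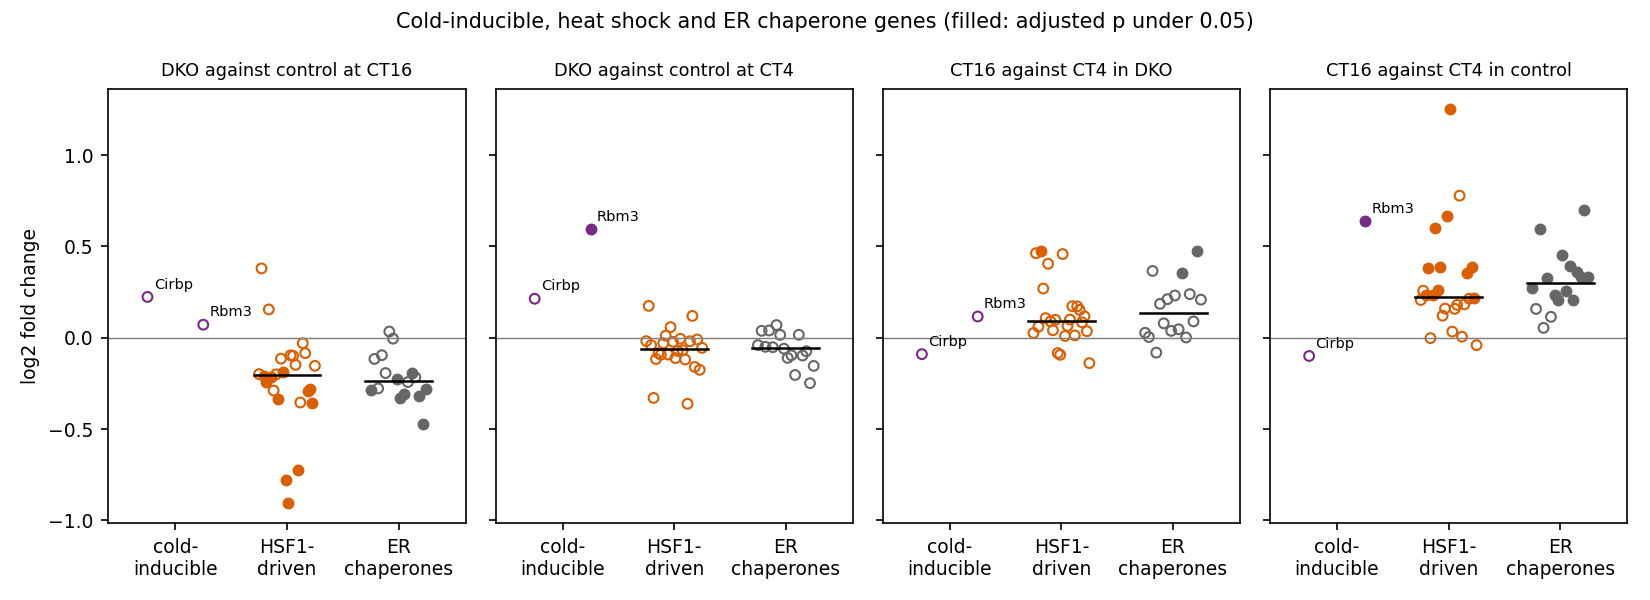
Log2 fold changes of Rbm3 and Cirbp, of 24 HSF1-driven heat shock genes and of 16 endoplasmic reticulum (ER) chaperone genes in 4 comparisons. Filled points had an adjusted p under 0.05, and lines mark list medians. Rbm3 stands out at CT4 between genotypes (0.59), where both chaperone lists have medians near 0 (-0.06 each), while at CT16 the chaperone medians are -0.21 and -0.23.

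Chaperones of the endoplasmic reticulum, which answer to the unfolded protein response, changed in the same comparisons as the heat shock genes. Of 16, 8 fell in DKO at CT16 (median -0.23), 13 rose over time in control (median 0.30) and 2 rose over time in DKO. The shares of all genes were 1.83% that fell in DKO at CT16, 2.13% that rose over time in control and 1.29% that rose over time in DKO. The count over time in control was 6 without control CT4 replicate 2 and 8 without control CT4 replicate 3. Of all genes 235 and 332 were called in these fits, against 712 in the main fit. Sdf2l1, an HSP40 partner, had the largest changes, with -0.47 ± 0.09 in DKO at CT16 (adjusted p 0.00528) and 0.70 ± 0.10 over time in control (adjusted p 0.00112). Hspa5, the ER HSP70, fell by 0.33 ± 0.07 in DKO at CT16 and rose by 0.45 ± 0.08 over time in control (adjusted p 0.0130 and 0.00442). Between genotypes at CT4 edgeR, DESeq2 and limma voom each called 0, with 2 at an unadjusted p under 0.05. At CT16 the count was 3 without the libraries that stood apart, in a fit that also called fewer of all genes.

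Of the 5 heat shock factor genes none was called by edgeR in any comparison, with at most 2 at an unadjusted p under 0.05. The lists that follow are small and are to be read beside the shares of all genes called. These were 1.28% in DKO at CT4, 4.66% in DKO at CT16, 4.21% over time in control and 1.8% over time in DKO. Of 24 other proteins with RNA recognition motifs or glycine-rich stretches, Ncl (nucleolin) rose (0.25 ± 0.06, adjusted p 0.0484) and Tia1, a stress granule protein, fell (-0.34 ± 0.06, adjusted p 0.0174) in DKO at CT4. In DKO at CT16 Hnrnpa1 (0.43 ± 0.12, adjusted p 0.0443) and Hnrnpdl rose. Over time Rbm4b rose in DKO (0.28 ± 0.06, adjusted p 0.0380) and in control (0.23 ± 0.06, adjusted p 0.0475), Hnrnph1 rose in DKO (0.23 ± 0.05, adjusted p 0.0292), and Tia1 fell in control (-0.22 ± 0.06, adjusted p 0.0331).

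Of 16 SR splicing factors and CLK kinases, whose splicing and activity are known to be temperature sensitive, Tra2a fell in DKO at CT4 (-0.36 ± 0.08, adjusted p 0.0332). Over time Tra2a rose in DKO (0.49 ± 0.07, adjusted p 0.00198), Tra2b rose in DKO (0.36 ± 0.07, adjusted p 0.00935) and in control (0.32 ± 0.06, adjusted p 0.00911), and Srsf2 rose in control (0.17 ± 0.04, adjusted p 0.0355).

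Among 11 reported partners and targets of RBM3 and CIRBP, Clock alone passed a test, in DKO at CT16, where 4.66% of all genes passed. It rose in DKO at CT16 (0.22 ± 0.06, adjusted p 0.0345), with overlapping libraries, and had a log2 fold change of -0.08 ± 0.07 at CT4 (adjusted p 0.623). Rtn3, the reticulon that RBM3 raises in the cooled mouse brain, differed by 0.06 ± 0.06 in DKO at CT4 (adjusted p 0.692), where Rbm3 rose. Ntrk2, the BDNF receptor reported upstream of Rbm3, differed by 0.12 ± 0.07 there (adjusted p 0.442). Of 11 temperature-sensitive TRP channels 10 were tested, and Trpm3, a heat-activated channel, rose in DKO at CT16 (0.41 ± 0.07, adjusted p 0.00114) and fell over time in control (-0.34 ± 0.07, adjusted p 0.0127). Of 13 genes of translation initiation and its kinases, Eef2k, the elongation factor 2 kinase, rose in DKO at CT16 (0.42 ± 0.06, adjusted p 0.000381).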

How the data were processed

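The deposited values are raw counts of reads for each gene in each library, not normalized, listed with exonic lengths and coordinates. STAR, featureCounts, DESeq2 and mm10 are named in the submitters' processing notes; neither versions, annotation nor strand setting is given in the sources used here. Total counts were 32580803 to 68757624 per library. Library pairs within groups had a chi-square per degree of freedom of 6.57 to 124, so each counted as 1 replicate.

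The fit used edgeR 4.0.16 under R 4.3.3, with filterByExpr (16910 of 24419 genes kept), TMM factors, 4 group means over 15 libraries (11 residual degrees of freedom) and robust quasi-likelihood tests of 5 contrasts. The calling threshold was 0.05 after Benjamini-Hochberg adjustment. An SE is the log2 fold change, without sign, over the root of F. CPM used TMM-scaled totals, and log2 CPM a prior count of 2. Alternatives were upper quartile and RLE factors, limma 3.58.1 voom with quality weights, DESeq2 1.42.0, no or a stricter filter (1 CPM in 5 libraries), the compared groups alone, a replicate block, neighbouring nuclei and myelin scores as covariates, exclusion of 3 libraries, and each library left out. The ER chaperone counts and the shorter Rbm3 length were added after seeing the data.

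Named were Rbm3, Cirbp, 6 heat shock genes, up to 4 called genes of smallest p per other list and comparison, 5 most and 2 least alike genes per member (mean log2 CPM of at least 3) and 3 tested neighbours per side; not every result under this rule is reported here. The members and the 18 lists (234 genes, 229 tested) were chosen with earlier results of these data known. Steps were tested on simulated data. Same-numbered libraries' deviations correlated at -0.184 to 0.138 over 7 pairs. Promoters came from RefSeq, where Rbm3 and Hsp90aa1 have no entry in the table used, and alignments from Biopython 1.88; figures were drawn with matplotlib 3.10.9.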

Additional observations from a re-analysis of the deposited data

Results flagged for a closer look

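Stip1 in control CT16 replicate 2 was at 267 CPM, below the other 4 libraries of its group, with a gap that made up 0.722 of the group's range. This was 1 of 20 groups of 4 or 5 libraries examined, about the rate at which chance alone gives such a gap. Without that library the lower level of Stip1 in DKO against control at CT16 still passed edgeR's test.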

How the results depend on the processing

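Rbm3 passed the test at CT4 between genotypes in 25 of 26 other settings (0.53, adjusted p 0.0722, with the neighbouring nuclei covariate) and over time in control in all 26. Leaving out single libraries gave 0.54 to 0.64 and 0.59 to 0.67. The Rbm3 interaction passed with DESeq2 (-0.53), limma voom (-0.57), the exclusion of 3 libraries (-0.59) and without DKO CT16 replicate 3, but not with the neighbouring nuclei covariate (-0.42, adjusted p 0.999), the replicate block (-0.52, adjusted p 0.229) or the other settings, and single libraries left out gave -0.58 to -0.45. Cirbp was not called in any setting, its CT4 change lying at 0.15 to 0.36 with single libraries left out (0.36 without control CT4 replicate 2). Without control CT16 replicate 1 the exact permutation p of the Rbm3 to Cirbp ratio at CT16 was 0.0286, and single libraries left out gave -0.19 to -0.12.

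Replicate numbers did not pair the libraries. With the replicate number as a block, the Rbm3 change at CT4 was 0.59 (adjusted p 0.0324), and counts of called genes were 104 (CT4), 503 (CT16), 379 (time in control), 159 (time in DKO) and 1 (interaction), against 217, 788, 712, 304 and 2. In the same order DESeq2 gave 584, 1267, 1317, 874 and 360, and limma voom 822, 1816, 1310 and 420 for CT4, both time comparisons and the interaction. The compared groups alone gave 828 (CT4), 368 (CT16) and 47 (time in DKO). The neighbouring nuclei covariate gave 31, 439, 59 and 0, and the exclusion of 3 libraries 606, 419, 1184 and 423, for CT4, CT16, time in DKO and interaction. The myelin covariate gave 689 (CT4), 1059 (time in DKO) and 96 (interaction), and no filter 6 (interaction). Single libraries left out gave 16 to 328 (CT4, lowest without control CT4 replicate 3), 380 to 1318 (CT16), 235 to 1057 (time in control), 103 to 1461 (time in DKO) and 1 to 298 (interaction).

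HSF1-driven genes called were 11 at CT16, but 5 with the block, 5 on the compared groups, 3 with the neighbouring nuclei covariate, 6 after the exclusion, and 4 to 11 with single libraries left out (4 without DKO CT16 replicate 2). Over time in control they were 11, but 18 with limma voom, 6 with the block, 7 with the neighbouring nuclei covariate, and 4 to 16 with single libraries left out (4 without control CT4 replicate 2). At CT4 they were 0, but 1 with DESeq2, 2 with limma voom, 2 on the compared groups, 1 with the myelin covariate, 1 after the exclusion, and 0 to 1 with single libraries left out. Over time in DKO they were 1, but 3 with DESeq2, limma voom or the myelin covariate, 2 with the stricter filter or the block, 0 on the compared groups or with the neighbouring nuclei covariate, 4 after the exclusion, and 1 to 3 with single libraries left out. In the interaction they were 0, and 2 with DESeq2 or limma voom. ER chaperones called were 8 at CT16, but 5 with the neighbouring nuclei covariate and 3 after the exclusion, over time in control 13, but 6 to 13 with single libraries left out (6 without control CT4 replicate 2), and over time in DKO 2, but 0 to 6 in other settings. No value changed direction while called. The cause of these shifts was not tested. Groups of 3 libraries limit what could be detected at CT4, and Rbm3os was too sparsely counted for a firm value.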
